A study of Mus musculus with 6 samples.

Results

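The collagen chains were examined in tumours of Hep1-6, a mouse hepatoma cell line. They were taken as every row of the deposited expression table whose gene name has the form Col, a type number, the letter a and a chain number. This rule found 44 chains among 34745 genes, of which 11 are fibrillar, 6 belong to the basement membrane type IV family and 27 are other collagens. All tumours came from cells kept in DMEM with 10% FBS and then injected under the skin of C57BL/6J mice. The mice received a normal diet (ND, 3 tumours) or a high cholesterol diet (HCD, 3 tumours). Whether any mouse gave more than 1 tumour is not stated in the labels, so the p-values cover only variation among these 6 tumours, and no age is stated for the animals. The tumours grew from 1 cell line under the skin and not in the liver, so a piece can hold host vessels, fibroblasts and leukocytes beside the tumour cells.

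Collagens are proteins in which chains wind around each other into triple helices. Fibrillar collagens (types I, II, III, V, XI, XXIV and XXVII) assemble into the fibres that give tissue its tensile strength, whereas type IV collagen forms the sheet-like network of basement membranes under endothelium and epithelium. The remaining types coat fibres, link them to cells or basement membranes, or build networks of their own. In tumours, collagens are made mainly by fibroblasts, and by endothelial and mural cells of the vessels, and tumour cells can make some of them too.

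No collagen chain differed between the diets in a test across all genes. Of 22 chains with a mean of at least 0.5 FPKM (fragments per kilobase of gene, scaled to library size, the deposited unit), none passed an adjusted p of 0.05 in limma with Benjamini-Hochberg adjustment. The same test called 0% of all 13417 genes tested. At an unadjusted p under 0.05 it had 0 of the 22 chains and 5.88% of all genes (2.56% higher and 3.32% lower in HCD), and the lowest adjusted p of any chain was 0.794. What set the chains apart from one another was their level and their spread between single tumours, and the following paragraphs describe both by class.

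Library sizes, read from the steps in the FPKM values, ranged from 20351637 to 26228074 fragments. A gene with 1 FPKM and 2 kb of length then rested on 40.7 to 52.5 reads. Log2 values of any 2 libraries correlated at 0.9596 to 0.9864 across genes. Hepatoma markers were high, with Alb (albumin) at 1375 ± 155 FPKM under ND and 1439 ± 250 FPKM under HCD (mean ± SD, n = 3 each), while Serpina1a, another hepatocyte product, was below the level tested. Skeletal muscle markers summed to 705 FPKM in ND 2 and 827 FPKM in HCD 1, against 5.25 to 79.2 FPKM in the other 4 tumours, and all of these tumours were kept. In bulk tissue, fewer cells of a type and less RNA per cell cannot be told apart, and this holds for each level below.

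Positions of the 9 chains with means of at least 10 FPKM are from GENCODE M21 on the mouse build GRCm38, counted from 1. The chains of type I collagen, Col1a1 and Col1a2, lie at chr11:94936224-94953042 on the plus strand and chr6:4504814-4541544 on the plus strand. Col3a1 (chr1:45311538-45349706, plus strand) and Col5a2 (chr1:45374321-45503282, minus strand) are neighbours whose ends face each other across 24614 bases. Col4a1 (chr8:11198423-11312826, minus strand) and Col4a2 (chr8:11312805-11449287, plus strand) start head to head and overlap by 22 bases. Col8a1 lies at chr16:57624258-57754737 on the minus strand, Col6a1 at chr10:76708792-76726168 on the minus strand and Col18a1 at chr10:77052178-77166548 on the minus strand. The stretch between the 2 type IV start sites is shown because both chains, which are built into the same molecule, start from it. It is written on the plus strand from chr8:11312805-11312826 (RefSeq, GRCm38.p6), with a match to GGGCGG in capitals.
Col4a2 start to Col4a1 start: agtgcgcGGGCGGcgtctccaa

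Fibrillar chains were among the most abundant collagens and had the highest median spread between tumours of the 3 classes. Col1a1, the main chain of type I collagen, measured 85.9, 43.6 and 62.6 FPKM (ND 1, ND 2, ND 3) and 45.3, 93.2 and 43.8 FPKM (HCD 1, HCD 2, HCD 3). ND 1 and HCD 2 were high, and the other 4 tumours of both diets lay below them. The HCD minus ND difference, on the log2(FPKM + 1) scale used for all log2 differences here, was -0.11 (SE 0.360, 95% interval -0.99 to 0.76, adjusted p = 0.946, limma).

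Col1a2, the partner chain of Col1a1 in type I collagen, measured 34.3, 19.8 and 29.9 FPKM (ND 1, ND 2, ND 3) and 21.2, 44.7 and 18.8 FPKM (HCD 1, HCD 2, HCD 3). HCD 2 was again the highest and ND 1 the next, and the diets overlapped, with a log2 difference of -0.06 (SE 0.357, limma adjusted p = 0.971). Col3a1, the chain of type III collagen found in soft tissue beside type I, measured 71.5, 34.7 and 42.5 FPKM (ND 1, ND 2, ND 3) and 39.1, 75.0 and 26.0 FPKM (HCD 1, HCD 2, HCD 3). Its HCD 2 and ND 1 values were the highest and its HCD 3 value the lowest, 2.89-fold below HCD 2. The log2 difference of Col3a1 was -0.15 (SE 0.428, limma adjusted p = 0.936), and its exons share 141 bases on the same strand with Gm47302, whose reads could be split between the genes.

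The 250 bases before the Col3a1 start are shown because this chain had the largest spread among the abundant collagens. The window is chr1:45311288-45311537 on the plus strand, 5′ to 3′, with its match to TATAAA in capitals 117 bases before the start. Beside it stand the 250 bases before the start of Col8a1, a chain of similar FPKM with a small spread, from chr16:57754738-57754987 on the minus strand, with matches to CCGCCC in capitals, which reads GGGCGG on the other strand. Both are from RefSeq, GRCm38.p6.
Col3a1: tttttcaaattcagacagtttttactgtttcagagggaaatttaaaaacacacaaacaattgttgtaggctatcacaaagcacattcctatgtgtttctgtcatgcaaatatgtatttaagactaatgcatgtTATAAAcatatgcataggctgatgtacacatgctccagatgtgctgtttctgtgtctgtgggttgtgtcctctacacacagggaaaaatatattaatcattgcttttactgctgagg
Col8a1: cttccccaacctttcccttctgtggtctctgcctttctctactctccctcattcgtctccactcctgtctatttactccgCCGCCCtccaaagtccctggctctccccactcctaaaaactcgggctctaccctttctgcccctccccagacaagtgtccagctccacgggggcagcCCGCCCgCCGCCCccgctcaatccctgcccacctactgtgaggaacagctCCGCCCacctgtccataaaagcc
The Col3a1 window held 1 match to TATAAA and none to GGGCGG or CCAAT on either strand, and the Col8a1 window held 4 matches to GGGCGG and none to the other motifs. RefSeq windows were found for 35 of the 44 chains, 38 windows in all because some chains have more than 1 start. GGGCGG was in 22 of these 38 (57.9%) and in 32.7% of 32851 windows of all genes, with both strands searched. TATAAA was in 13.2% of the collagen windows and 12.4% of all windows, and CCAAT in 34.2% and 33.8%. A match gives the letters in the window only, and binding was not measured.

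The chains of type V collagen, which lies inside type I fibres and limits their width, were lower. Col5a2 measured 13.5, 8.77 and 13.0 FPKM (ND 1, ND 2, ND 3) and 11.1, 16.4 and 8.56 FPKM (HCD 1, HCD 2, HCD 3), with HCD 2 the highest and ND 1 the next. Its log2 difference was 0.00 (SE 0.253, 95% interval -0.61 to 0.62, limma adjusted p = 0.997). Col5a1 averaged 7.46 ± 3.21 FPKM under ND and 6.49 ± 1.41 FPKM under HCD, and Col5a3 had 7.04 ± 1.99 and 6.22 ± 0.740 FPKM (SD, n = 3 each). In both chains ND 1 was the highest tumour and HCD 2 the next.

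Col27a1, a fibrillar chain known from cartilage, was ordered differently from the other fibrillar chains. It measured 13.4, 7.11 and 9.62 FPKM (ND 1, ND 2, ND 3) and 9.49, 5.0 and 6.68 FPKM (HCD 1, HCD 2, HCD 3). HCD 2, the highest tumour for Col1a1, Col1a2, Col3a1 and Col5a2, was the lowest for Col27a1. The chain had a log2 difference of -0.45 (SE 0.272, 95% interval -1.11 to 0.21), the largest absolute value of the 22 on the log2(FPKM + 1) scale, and its diets overlapped (limma adjusted p = 0.794). It was -0.24 without ND 1, -0.26 without HCD 2 and -0.05 without both.

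**Figure D1:**
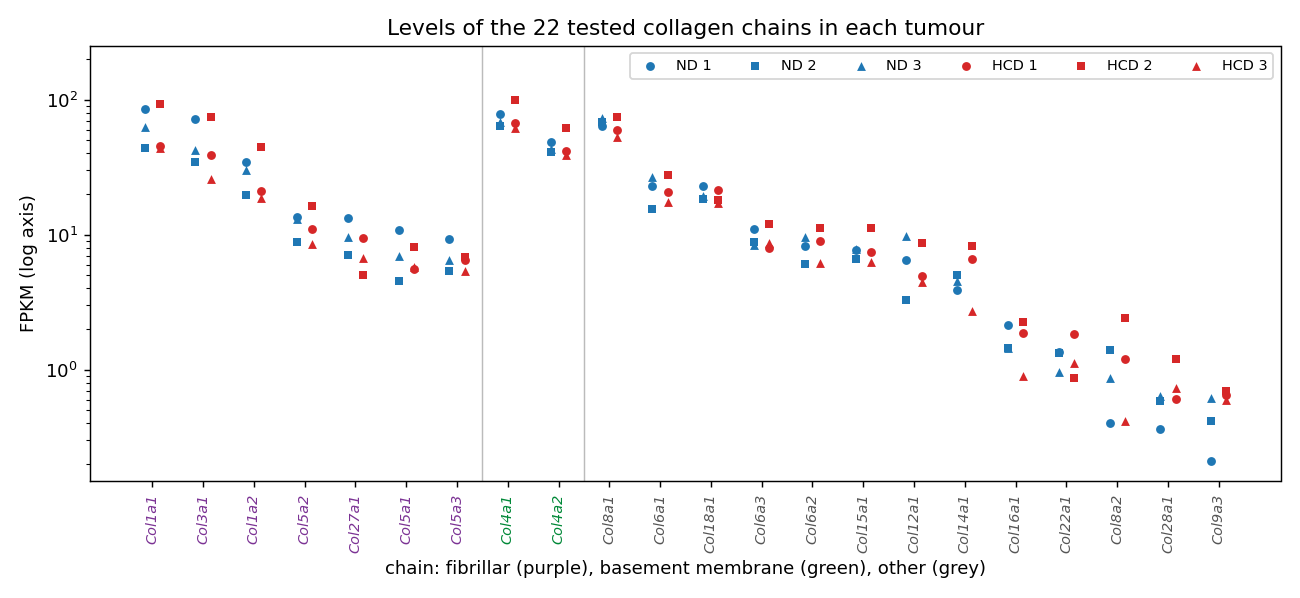
FPKM of the 22 tested collagen chains (log axis) in each of the 6 tumours, with ND tumours in blue and HCD tumours in red, ordered by class and by mean level. ND 1 and HCD 2 stand above the others for Col1a1 and Col3a1. The 6 tumours lie closer together for Col4a1, Col4a2 and Col8a1, with HCD 2 the highest.

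The other 4 fibrillar chains were at trace levels. Col2a1, the main collagen of cartilage, had 1, 5 and 1 reads in ND 1 to ND 3 and 0 reads in each HCD tumour. The diets thus did not overlap, on 7 reads in all. A library with 0 reads allows up to 3 reads by counting error, which is 0.0157 to 0.0203 FPKM for Col2a1. Of the ND tumours, 1 read lies below this floor in ND 1 and ND 3, and 5 reads lie above it in ND 2, and the chain was too low to be tested. Col11a1 (0.199 FPKM over the 6 tumours), Col11a2 (0.384 FPKM) and Col24a1 (0.133 FPKM) were also below the level tested.

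Of the basement membrane chains, Col4a1 and Col4a2 together form the type IV molecule of nearly all basement membranes. Both had high levels and a smaller spread than the tested fibrillar chains. Col4a1 measured 78.6, 63.7 and 68.1 FPKM (ND 1, ND 2, ND 3) and 67.4, 99.9 and 62.1 FPKM (HCD 1, HCD 2, HCD 3). Col4a2 measured 48.7, 41.3 and 43.4 FPKM (ND 1, ND 2, ND 3) and 41.4, 61.4 and 38.9 FPKM (HCD 1, HCD 2, HCD 3). HCD 2 was the highest tumour for both and ND 1 the next. The other 2 HCD tumours were within or just below the ND range, so the diets overlapped.

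The log2 difference was 0.10 for Col4a1 (SE 0.187, 95% interval -0.36 to 0.55, limma adjusted p = 0.909) and 0.06 for Col4a2 (SE 0.176, limma adjusted p = 0.941). Col4a1 and Col4a2 kept nearly the same proportion in every tumour, with a ratio of 1.54 to 1.63 in FPKM, a 1.06-fold range, although each chain varied 1.61-fold and 1.58-fold. The genes share 22 exonic bases on opposite strands. The other type IV chains, whose networks are known from kidney, lung, ear and eye, were near 0. Col4a3, Col4a4 and Col4a5 had means of 0.0324, 0.13 and 0.0528 FPKM, and Col4a6 had 1 read in ND 2, 1 read in HCD 1 and none in the other tumours.

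The other collagens were led by Col8a1, a short chain that forms open networks in vessel walls and in the eye. It measured 63.4, 68.5 and 73.7 FPKM (ND 1, ND 2, ND 3) and 59.7, 74.5 and 52.5 FPKM (HCD 1, HCD 2, HCD 3). ND 1 was the lowest ND tumour for this chain, unlike for the type I, III and IV chains, and the diets overlapped. Its log2 difference was -0.15 (SE 0.133, 95% interval -0.47 to 0.17, limma adjusted p = 0.821). Col8a2, its partner in the cornea, measured 0.402, 1.40 and 0.871 FPKM (ND 1, ND 2, ND 3) and 1.21, 2.40 and 0.419 FPKM (HCD 1, HCD 2, HCD 3). This chain varied 5.96-fold between tumours, the most of the 22, with a log2 difference of 0.25 (SE 0.350, limma adjusted p = 0.872), and ND 1 and HCD 3 were both low.

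Type VI collagen, which forms beaded filaments around cells, was present through 3 chains. Col6a1 measured 23.1, 15.6 and 26.8 FPKM (ND 1, ND 2, ND 3) and 20.8, 27.9 and 17.6 FPKM (HCD 1, HCD 2, HCD 3). HCD 2 was the highest, ND 3 the next and ND 2 the lowest, with a log2 difference of 0.03 (SE 0.236, limma adjusted p = 0.982). Col6a3 averaged 9.42 ± 1.36 FPKM under ND and 9.61 ± 2.15 FPKM under HCD, and Col6a2 had 8.01 ± 1.84 and 8.83 ± 2.57 FPKM (SD, n = 3 each). Col6a4, Col6a5 and Col6a6, chains that can take the place of Col6a3, had means of 0.0833, 0.0582 and 0.0447 FPKM.

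Col18a1 and Col15a1 are multiplexins of the basement membrane zone, and the end of the Col18a1 protein can be released as endostatin. Col18a1 measured 23.1, 18.5 and 19.3 FPKM (ND 1, ND 2, ND 3) and 21.3, 18.1 and 17.3 FPKM (HCD 1, HCD 2, HCD 3). It had the smallest spread of the 22 chains, 1.34-fold between the highest and lowest tumours, and a log2 difference of -0.10 (SE 0.112, limma adjusted p = 0.853). HCD 2, the tumour with the most Col15a1 and type IV chains, was the second lowest for Col18a1. Col15a1 averaged 7.39 ± 0.710 FPKM under ND and 8.35 ± 2.66 FPKM under HCD (SD, n = 3 each).

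Among chains of the FACIT group, which sit on the surface of fibres, Col12a1 and Col14a1 were the most abundant. Col12a1 averaged 6.51 ± 3.20 FPKM under ND and 6.04 ± 2.32 FPKM under HCD, and Col14a1 had 4.48 ± 0.548 and 5.83 ± 2.81 FPKM (SD, n = 3 each). Col16a1, Col22a1 and Col9a3 had means of 1.68, 1.25 and 0.530 FPKM over the 6 tumours. Col28a1, of a type known from peripheral nerve, measured 0.364, 0.589 and 0.644 FPKM (ND 1, ND 2, ND 3) and 0.604, 1.20 and 0.729 FPKM (HCD 1, HCD 2, HCD 3). Its log2 difference was 0.26 (SE 0.152, 95% interval -0.11 to 0.63, limma adjusted p = 0.794), on 42 to 124 reads a tumour, and HCD 1 lay inside the ND range. For so low a chain the value depended on the scale, with 0.56 at a pseudocount of 0.1 and 0.64 in limma-voom on recovered reads, where Col27a1 had -0.50 and -0.51. Without HCD 2 it was 0.12.

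In all, 22 chains had means under 0.5 FPKM, from 0.00177 to 0.494, and were not tested. Col9a3 (0.530 FPKM) was just inside this limit and Col20a1 (0.494 FPKM) just outside it. Of the untested chains, 12 were under 0.1 FPKM and 11 had fewer than 100 reads over all 6 tumours. Among them, Col13a1, Col10a1, Col23a1, Col9a1 and Col7a1 had means of 0.342, 0.322, 0.314, 0.293 and 0.229 FPKM, and Col26a1, Col25a1, Col19a1 and Col9a2 had 0.0509, 0.0447, 0.0126 and 0.00200 FPKM. Col17a1, a transmembrane chain of hemidesmosomes in skin, had at most 1 read in each ND tumour. It had 1, 3 and 15 reads in HCD 1, HCD 2 and HCD 3. Its floor of 3 reads is 0.0182 to 0.0234 FPKM. All ND tumours and HCD 1 were below it, HCD 2 was at it, and only HCD 3 was above it. Of 4 tested skin epithelium markers, 2 were also highest in HCD 3, Krt14 at 7.48 FPKM and Krt5 at 5.28 FPKM. The other 2, Dsp and Krt10, were highest in ND 3, and a link to Col17a1 was not tested.

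**Figure D2:**
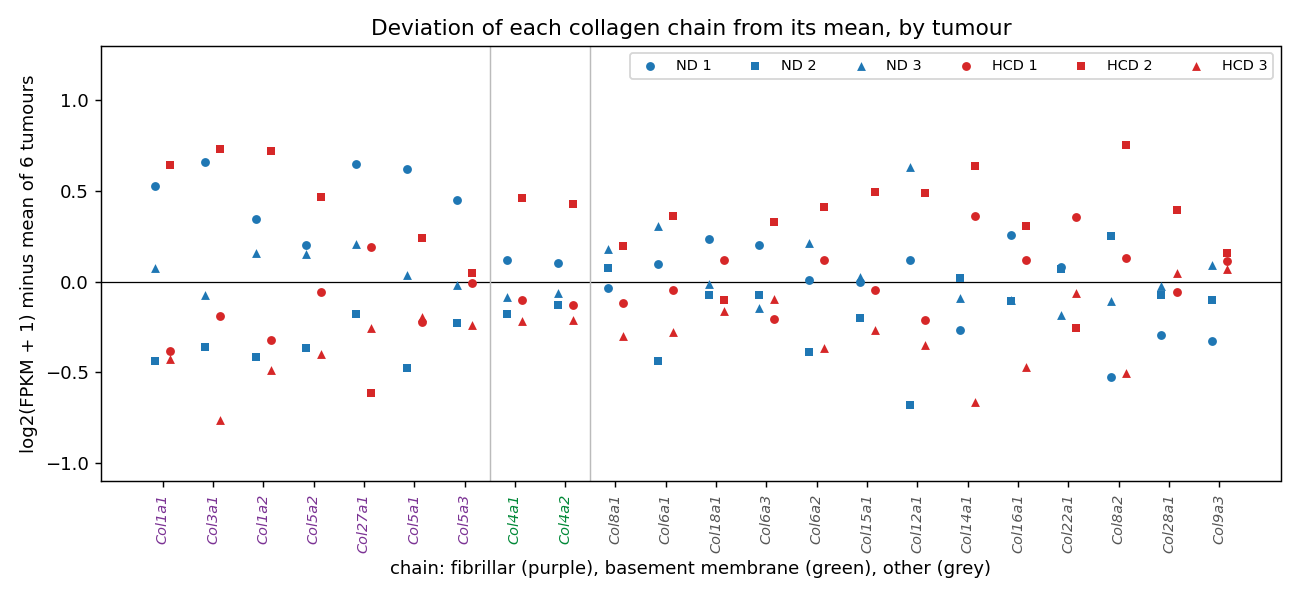
Deviation of each tested chain from its mean over the 6 tumours, in log2(FPKM + 1), with ND tumours in blue and HCD tumours in red. HCD 2 is at the top for 16 of the 22 chains, and ND 1 joins it for most fibrillar chains and for both type IV chains.

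Many chains shared the same high and low tumours. HCD 2 was the highest of the 6 tumours for 16 of the 22 tested chains, where 24% of all tested genes were highest there. HCD 3 was the lowest for 11 of the 22, against 16.7% of all genes. ND 1 and HCD 2, a tumour of each diet, were the 2 highest for 6 of 7 fibrillar chains, both basement membrane chains and 2 of 13 other chains, Col6a3 and Col16a1. This pair was on top for 3.76% of all tested genes. These counts describe 6 tumours, the pair was chosen after the values were seen, and chains share the tumours, so no test was made.

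The classes differed in how ND 1 stood. The median deviation of the fibrillar chains from their mean, on the log2(FPKM + 1) scale, was 0.53, -0.36 and 0.08 for ND 1, ND 2 and ND 3, and -0.19, 0.47 and -0.40 for HCD 1, HCD 2 and HCD 3. For the basement membrane chains it was 0.11, -0.15, -0.07 and then -0.11, 0.45, -0.22, and for the other chains 0.01, -0.08, -0.01 and then 0.11, 0.36, -0.27. All classes were high in HCD 2 and low in HCD 3, while ND 1 was high by as much as HCD 2 for fibrillar chains only, a difference between the classes that was not tested.

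Spread between tumours was wider for collagens than for most genes. The coefficient of variation over the 6 tumours had a median of 34.6% for the fibrillar chains (21.4% to 42.1%), 18.8% for the basement membrane chains and 28.3% for the other chains (11.2% to 66.9%). Over all tested genes the median was 10.9%. Wide spread was not particular to collagens. Among the tested markers described below, it was 32.9% (Csf1r) to 52.9% (Lyz2) for macrophages and 13.7% (Esam) to 49.7% (Tek) for endothelium. For fibroblast markers it was 11.6% (Dcn) to 72.9% (Dpt). The 95% intervals of the diet difference had a median width of 0.56 on each side for the collagens and 0.23 for all tested genes. All 22 intervals included 0 and 18 lay wholly between -1 and 1, so a 2-fold change on this scale lay inside the interval of the other 4 chains, Col3a1, Col27a1, Col14a1 and Col8a2.

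**Figure D3:**
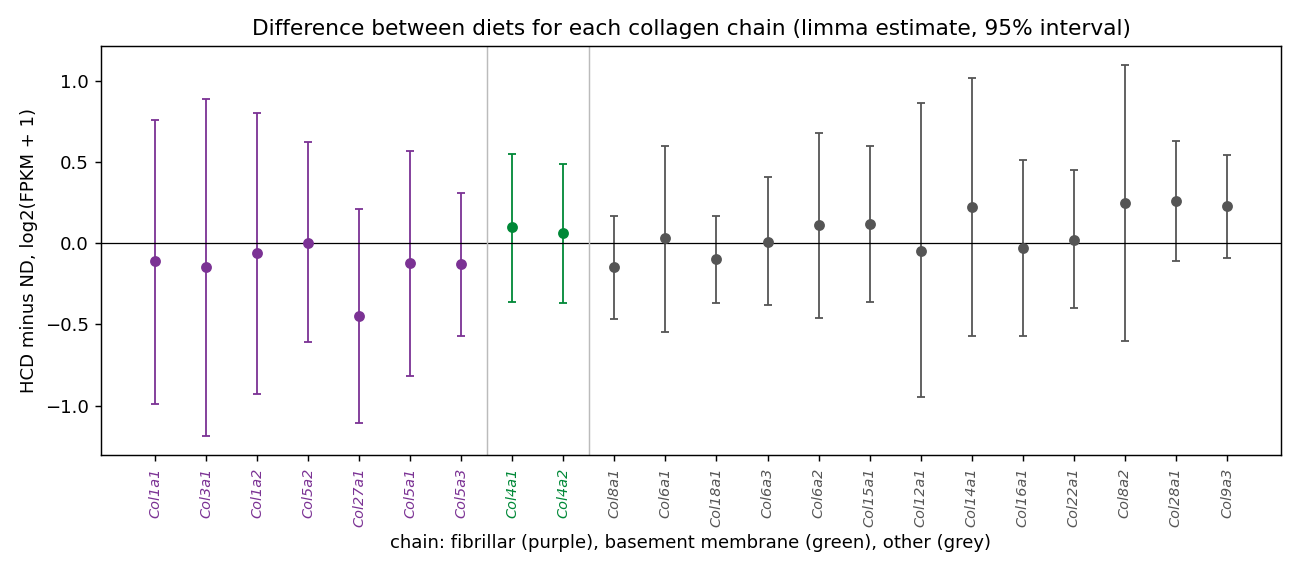
HCD minus ND difference of each tested chain in log2(FPKM + 1), as the limma estimate with its 95% interval. Every interval includes 0, and the 4 widest belong to Col3a1, Col12a1, Col1a1 and Col1a2.

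By class, the median log2 difference was -0.12 over 7 fibrillar chains (1 higher and 6 lower in HCD), 0.08 over 2 basement membrane chains (both higher) and 0.03 over 13 other chains (9 higher and 4 lower). It was 0.01 over all 22 chains and 0.02 over all tested genes. A higher mean in HCD was found for 12 of 22 chains and 55.7% of all tested genes. In none of the 22 chains were the diets free of overlap, which was the case for 12.1% of all tested genes.

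Leaving out single tumours moved the class values across 0. Without ND 1, 19 of 22 chains had a higher mean in HCD and the fibrillar median was 0.11. Without HCD 2, 3 chains did, and the medians were -0.27 for fibrillar and -0.13 for basement membrane chains. Without HCD 3 the fibrillar median was 0.07. Without both ND 1 and HCD 2, 6 of 22 chains had a higher mean in HCD. No chain passed the adjusted threshold under any of these.

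Summed over all chains, collagen FPKM reached 521, 370 and 451 for ND 1, ND 2 and ND 3, and 394, 594 and 338 for HCD 1, HCD 2 and HCD 3, or 447 ± 75.6 under ND and 442 ± 134 under HCD (SD, n = 3 each). The highest and the lowest sums were both in HCD. Col1a1, Col1a2, Col3a1, Col4a1, Col4a2 and Col8a1 made up 69.5% to 75.6% of the sum in each tumour.

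Fibrillar chains made up 39.3 ± 6.18% of the summed FPKM in ND and 37.2 ± 4.31% in HCD, and basement membrane chains 25.9 ± 2.21% and 28.3 ± 1.47% (SD, n = 3 each). The fibrillar share was highest in ND 1 (46.0%) and next in HCD 2 (42.1%), and lay between 33.7% and 38.2% in the other 4 tumours. The log2 ratio of basement membrane to fibrillar FPKM was -0.91, -0.25 and -0.62 for ND 1, ND 2 and ND 3, and -0.35, -0.63 and -0.19 for HCD 1, HCD 2 and HCD 3. Its mean was 0.20 higher in HCD, less than the SD of 0.33 among the ND tumours, and the diets overlapped. The difference was 0.05 without ND 1 and 0.38 without ND 2.

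The order of levels between chains depended on the gene length behind the values. Lengths were sought that turn the deposited FPKM into whole reads, nearest to the exon length in GENCODE M21. They were 1.04 (Col5a1) to 3.03 (Col1a2) times the length of the principal coding transcript, with a median of 1.53 over the 22 tested chains. For Col8a1 the length taken was 2 times that of the transcript, 10216 against 5108 bases, and all 6 of its read numbers were even. Its reads are thus whole at 5108 bases too, so the lower end of the range and the median depend on this choice. On the deposited scale Col4a1 (73.3 FPKM over the 6 tumours), Col8a1 (65.4), Col1a1 (62.4), Col3a1 (48.1), Col4a2 (45.8) and Col1a2 (28.1) led. Per kilobase of principal transcript, Col3a1 (92.9 ± 39.1), Col1a2 (85.2 ± 30.9), Col4a1 (78.1 ± 15.2) and Col1a1 (73.0 ± 26.1) were high on the FPKM scale (SD over 6 tumours). Col8a1 came out at 131 ± 17.1 with the length of 10216 bases. With 5108 bases it keeps its deposited 65.4, below those chains, so its place in the order is not settled. On the scale of principal transcripts the means of Col3a1, Col1a2, Col4a1 and Col1a1 lay close together beside their spread between tumours. That spread does not measure their order within a tumour. Col1a1 was below Col1a2 in every tumour, and Col3a1 was 0.978 to 1.42 times Col1a1.

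The chains of type I collagen show how much the length matters. Col1a1 was 2.09 to 2.51 times Col1a2 in deposited FPKM and 0.805 to 0.967 times Col1a2 per principal transcript. Col6a1 was 2.30 to 2.85 times Col6a2 in deposited FPKM and 1.19 to 1.48 times on the other scale. Type I molecules are classically built with more Col1a1 than Col1a2 chains, and neither ratio measures protein. Differences between diets within a chain hardly depend on its length, and the log2 ratio of basement membrane to fibrillar levels differed by 0.20 between diets on both scales.

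**Figure D4:**
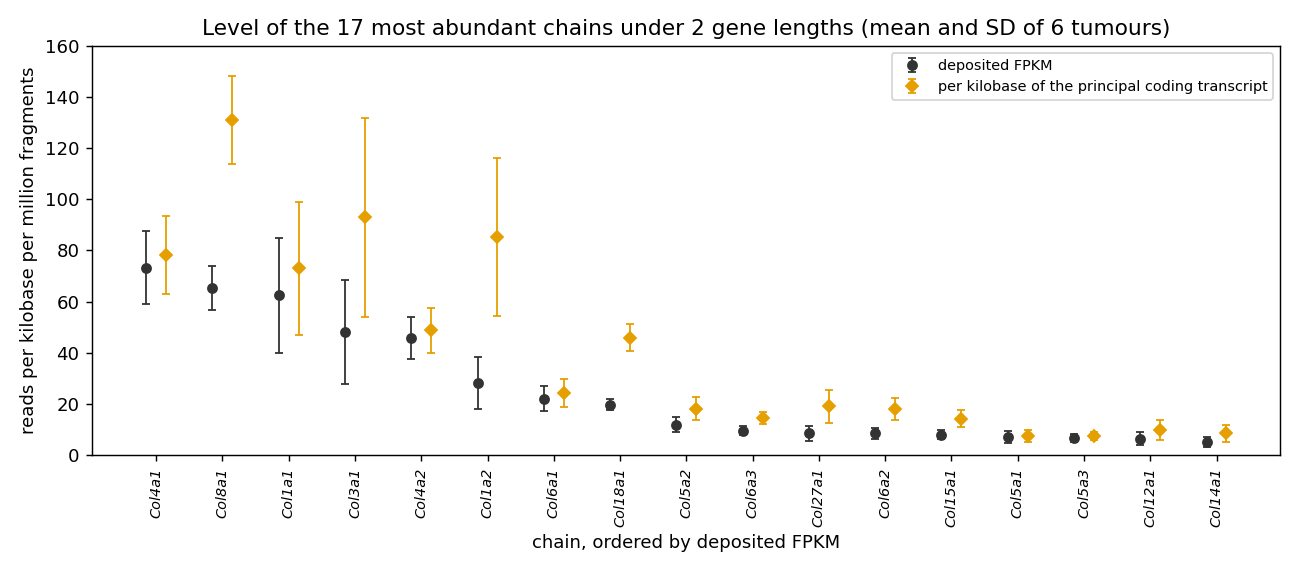
Level of the 17 most abundant chains as deposited FPKM (black) and per kilobase of the principal coding transcript (orange), as mean and SD over the 6 tumours on a linear axis. Col3a1, Col1a2 and Col18a1 are much higher on the second scale, while Col4a1, Col4a2, Col5a1 and Col6a1 change little. Col8a1 is drawn higher too, but only with its longer recovered length of 10216 bases. With 5108 bases, which also gives whole reads, it does not change.

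Genes that modify and fold collagen chains in the endoplasmic reticulum were mostly lower in HCD without passing the test. Of 20 genes in this list, 19 were tested and 0 were called, with 3 higher and 16 lower in HCD and a median log2 difference of -0.12 against 0.02 for all tested genes, 44.3% of which were lower. ND 1 was the highest tumour for 12 of the 19, against 17.4% of all genes. HCD 3 was the lowest for 10 of the 19, against 16.7% of all genes. No values with tumours left out are given for this list, so how far its lower levels in HCD rest on these tumours was not tested. P4hb, the beta subunit of prolyl 4-hydroxylase, averaged 325 ± 34.2 FPKM under ND and 300 ± 29.0 FPKM under HCD, and Colgalt1, which adds galactose to hydroxylysine, at 55.0 ± 2.63 and 52.5 ± 3.21 FPKM (SD, n = 3 each). Both overlapped between the diets.

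P4ha1 and P4ha2, catalytic subunits of prolyl 4-hydroxylase, which makes the hydroxyproline that holds the helix together, had the largest absolute differences in this list; the third such subunit, P4ha3, had -0.12 with overlapping diets. P4ha1 measured 28.4, 27.1 and 25.5 FPKM (ND 1, ND 2, ND 3) and 19.2, 24.5 and 21.4 FPKM (HCD 1, HCD 2, HCD 3), with every HCD tumour below every ND tumour. Its log2 difference was -0.31 (SE 0.0952, unadjusted p = 0.0171, limma adjusted p = 0.794). P4ha2 measured 12.1, 10.1 and 9.66 FPKM (ND 1, ND 2, ND 3) and 6.84, 9.17 and 8.51 FPKM (HCD 1, HCD 2, HCD 3), also without overlap, with a log2 difference of -0.35 (SE 0.125, unadjusted p = 0.0314 and adjusted p = 0.794, limma). Plod3 and Mia3 of this list, named after their values were seen, were also lower in HCD without overlap. Each had a log2 difference of -0.17, with an unadjusted p of 0.0199 for Plod3 and 0.0647 for Mia3 (limma). Groups without overlap and lower in HCD made up 6.13% of all tested genes. Serpinh1, the collagen chaperone HSP47, named after its values were seen, was highest in ND 1 (43.0 FPKM) and HCD 2 (39.1 FPKM), the same pair as for most fibrillar chains.

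Of 13 genes that trim procollagen or crosslink fibres, 10 were tested and 0 were called, with 4 higher and 6 lower in HCD and a median log2 difference of -0.08. Pcolce, an enhancer of procollagen trimming, averaged 55.8 ± 5.98 FPKM under ND and 57.0 ± 3.44 FPKM under HCD, and Bmp1, a procollagen protease, at 25.8 ± 6.63 and 21.9 ± 3.00 FPKM (SD, n = 3 each). The largest differences belonged to the crosslinking enzymes Loxl2 (-0.41, SE 0.261) and Lox (-0.40, SE 0.463), and both overlapped between the diets. Lox measured 16.2, 5.35 and 11.3 FPKM (ND 1, ND 2, ND 3) and 6.77, 12.8 and 4.46 FPKM (HCD 1, HCD 2, HCD 3), with ND 1 and HCD 2 again the highest.

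Of 10 collagen receptors, 9 were tested and 0 were called, with 4 higher and 5 lower in HCD and a median log2 difference of -0.01. Itgb1, the beta subunit of the collagen-binding integrins, averaged 163 ± 8.62 FPKM under ND and 153 ± 6.06 FPKM under HCD (SD, n = 3 each). Itga2, whose product pairs with it to bind collagen, measured 54.4, 46.5 and 43.4 FPKM (ND 1, ND 2, ND 3) and 37.8, 36.9 and 37.9 FPKM (HCD 1, HCD 2, HCD 3), every HCD tumour below every ND tumour. Its log2 difference was -0.34 (SE 0.0875, unadjusted p = 0.00733 and adjusted p = 0.794, limma). Lair1, an inhibitory collagen receptor of leukocytes, had a log2 difference of 0.27 (SE 0.213) with overlapping diets.

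Markers of the cells that make collagen varied between the same tumours. Of 8 fibroblast markers other than collagens, 6 were highest in HCD 2 and 6 lowest in HCD 3, and their mean log2 level was 3.11, 3.15 and 3.20 for ND 1, ND 2 and ND 3, and 3.47, 3.74 and 2.57 for HCD 1, HCD 2 and HCD 3. Their summed FPKM ranged from 827 to 959 in ND and from 761 to 970 in HCD, with HCD 2 the lowest of all at 761. Most of the sum was Dcn (decorin), with 832 ± 73.3 FPKM under ND and 775 ± 118 FPKM under HCD (SD, n = 3 each). Means of the other markers over the 6 tumours ran from 0.972 (Pdgfra) to 26.7 FPKM (Thy1), so the sum follows Dcn. Which cells made the Dcn RNA was not tested. Pdgfra, a defining fibroblast marker, measured 1.06, 0.772 and 1.13 FPKM (ND 1, ND 2, ND 3) and 0.890, 1.51 and 0.463 FPKM (HCD 1, HCD 2, HCD 3). Dcn was highest in ND 1 (914 FPKM) and lowest in HCD 2 (682 FPKM), opposite in HCD 2 to 6 of the 8 markers and to most collagen chains. The mean log2 level of the list in ND 1 was not above that of ND 2 or ND 3.

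All 9 endothelial markers were highest in HCD 2, and 8 of 9 were lowest in ND 1; their summed FPKM ranged from 55.1 (ND 1) to 70.2 in ND and from 66.7 to 119 (HCD 2) in HCD. All 6 macrophage markers were likewise highest in HCD 2 and lowest in ND 1, with sums of 228 to 551 FPKM in ND and 374 to 915 FPKM in HCD. Of 8 mural markers, 6 were highest in HCD 2, with sums of 86.5 to 115 FPKM in ND and 93.7 to 144 FPKM in HCD. These sums include Des, which had 17.8 FPKM in ND 2 and 49.1 FPKM in HCD 1, the tumours with most skeletal muscle RNA. It had 1.52 to 4.81 FPKM in the others. None of these markers passed the test. In ND 1, then, most fibrillar chains were high while endothelial and macrophage markers were at their lowest, and in HCD 2 all were high. The part of cell makeup in the collagen levels was not tested.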

How the data were processed

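RNA was sequenced from 6 subcutaneous Hep1-6 tumours, 3 per diet, as paired-end TruSeq libraries, per the labels' protocols. The authors deposited FPKM values for 34745 mouse genes, 1 column per tumour, per the file headers. Build mm10 and the tools edgeR, HTSeq, TopHat2 2.0.9 and CASAVA 1.8 are listed, with no role for each, per the submitters' processing notes. Neither annotation release nor strand use is given in those sources, so reads of overlapping genes cannot be told apart. All sample columns were used (0 left out).

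FPKM values are not counts, so the 13417 genes averaging 0.5 FPKM or more were tested on log2(FPKM + 1) with limma 3.58.1 in R 4.3.3. The fit used all 6 tumours, diet as the only term, a variance trend and two-sided tests, with Benjamini-Hochberg adjustment over all tested genes at 0.05. This scale understates changes of low genes. The fit was tested on simulated data in which genes varied independently. Shifts shared between genes, such as those of many chains here, were not simulated.

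Reads were recovered from the FPKM steps by a search over gene lengths. Reads were whole within 0.02, or slightly more for the largest read numbers, for 96.7% of tested genes and for 44 of 44 collagen chains. Only 13.9% of tested genes were whole at their M21 exon length. Whole reads do not fix the length, since a multiple of a fitting length fits as well, as for Col8a1. Chains with few reads fit at many lengths. The recovered reads gave depth, the floors (3 reads, counting error only) and levels per principal transcript.

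The members, classes and gene lists were chosen with earlier results of these data known. Values per tumour are given for chains with a mean of at least 10 FPKM, chains with an unadjusted p under 0.05 and the 2 chains per class with the largest absolute difference. For each related list, the 2 most abundant genes and the 2 with the largest absolute difference are named. Alternatives were a pseudocount of 0.1, no filter, median-ratio scaling, limma-voom on recovered reads, a replicate block and left-out tumours. Transcript lengths and leaving out ND 1 with HCD 2 were chosen after seeing the data.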

Additional observations from a re-analysis of the deposited data

How the results depend on the processing

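No collagen chain was called under any alternative, and 0 genes were called in either direction except 1 lower gene without ND 2. Limma-voom on recovered reads called 0 of 13371 genes and had 712 at an unadjusted p under 0.05. The count of chains with a higher mean in HCD was 12 of 22, and 22 of 44 without the filter, which adds the low chains. It was 6 without ND 1 and HCD 2, and 3 to 19 with 1 tumour left out, lowest without HCD 2 and highest without ND 1.

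Of the named chains, 9 changed sign in at least 1 setting. Col5a2 was -0.01 under median-ratio scaling. Without ND 2 and HCD 1, the tumours with most muscle RNA, Col5a2 was -0.14, Col6a1 -0.16 and Col18a1 -0.25. Without ND 1 and HCD 2, Col18a1 was 0.02, Col4a1 -0.02, Col4a2 -0.08, Col5a2 -0.12, Col6a1 -0.09 and Col8a2 -0.26. With 1 tumour left out, the ranges were -0.46 to 0.12 (Col1a1), -0.44 to 0.17 (Col1a2), -0.56 to 0.19 (Col3a1), -0.11 to 0.23 (Col4a1), -0.14 to 0.18 (Col4a2), -0.23 to 0.20 (Col5a2), -0.19 to 0.18 (Col6a1), -0.06 to 0.57 (Col8a2) and 0.12 to 0.35 (Col28a1). Col27a1 stayed below 0 (-0.66 to -0.24), and so did Col8a1 (-0.28 to -0.04). The log2 ratio of basement membrane to fibrillar levels, 0.20, ran from 0.05 to 0.38. The cause was not tested.

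Same-numbered tumours deviated together with r of -0.19, 0.142 and 0.0588, and none correlated best with its own number, so the numbers were not taken as pairs. With the replicate block, 0 chains were called and the difference of Col27a1 was -0.45 (unadjusted p = 0.00133, limma adjusted p = 0.794). Depth limits the chains at trace level, 11 of which had fewer than 100 reads in all.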
